A study of Mus musculus with 6 samples.

Results

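Pygm, the gene for muscle glycogen phosphorylase, was followed in newborn mouse lenses together with 9 other genes of glycogen metabolism. These were Pygb, Pygl, Gys1, Gbe1, Gyg, Ugp2, Phka1, Phkb and Phkg1. Pygm was selected on its log2 difference between Hsf4-null and wild-type lenses on these same arrays, so its values are given as a description with no test. The other genes were chosen for their place in the pathway, with earlier results of these data known. The 10 genes have 18 probe sets that carry their symbol alone, out of 22626 probe sets tested and 12393 genes.

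Lenses were taken from newborn mice labelled as strain ICR, wild type or HSF4 null, with 3 arrays of each genotype and 50 ng of total RNA amplified per array. Hsf4 encodes heat shock transcription factor 4. The sources used here do not give how many animals went into an array or how the null allele was made, and p-values measure the spread between these samples. Values are log2 RMA intensities, in which a difference of 1 is a doubling, and they cannot be compared between probe sets. Array medians lay between 5.22 and 5.38, no detection calls were used, and levels below the lowest median are called dim here. Hsf4 itself averaged 9.35 ± 0.24 on the wild-type arrays and 4.04 ± 0.24 on the Hsf4-null arrays (SD, n = 3 each). Of 8 measured lens markers, Hsf4 included, 6 were above the dim range in both groups, among them Cryaa, an alpha crystallin, at 14.0 and Mip, the lens aquaporin, at 13.2 in wild-type lenses, and the lens epithelium factor Foxe3 was dim in both groups. Besides Hsf4, 1 of them fell, namely Bfsp1, a beaded filament protein of lens fibres, which went from 13.33 to 11.68 (difference -1.65, adjusted p = 0.000131 from limma), and the other 6 did not pass. The summed linear intensity of the markers without Hsf4 was 53549 to 53839 in wild-type lenses against 42849 to 45858 in Hsf4-null ones, and without Bfsp1 as well it was 43108 to 43897 against 39754 to 42342. Neither pair of ranges overlapped, and the part of this shift in the results that follow was not tested. These lens markers were named, and Bfsp1 left out of the sum, after their values were seen. In whole lenses, fewer cells of a type and less RNA per cell cannot be told apart.

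Glycogen is the branched glucose store of animal cells. Its synthesis starts on glycogenin, a protein that attaches the first glucose residues to itself, and continues through glycogen synthase and the branching enzyme, with UDP-glucose as the donor. Breakdown is carried out by glycogen phosphorylase, which exists in a muscle, a brain and a liver form and is switched on by phosphorylase kinase. Protein phosphatase 1, held at the glycogen particle by targeting subunits, acts against that switch and favours storage.

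Pygm was at the dim end of the arrays in wild-type lenses and well above it in Hsf4-null lenses. The wild-type arrays read 4.93, 4.63 and 4.58, all below the lowest array median. The Hsf4-null arrays read 8.86, 9.15 and 8.92. No Hsf4-null array came near a wild-type array, and the spread within each group was small, with an SD of 0.19 among wild-type and 0.15 among Hsf4-null arrays. The log2 difference was 4.26 (standard error 0.13, 95% confidence interval 3.96 to 4.57), or 19.2-fold on the linear scale. Because the wild-type level was dim and Pygm was selected on this difference, the size of the ratio is less certain than its interval shows. The gene has 1 probe set, so no second probe set bears on it.

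Gyg, which encodes glycogenin, also rose. The wild-type arrays read 9.78, 9.56 and 10.16, and the Hsf4-null arrays 11.54, 11.65 and 11.25. The groups did not overlap, and every array was well above the dim range. The log2 difference was 1.65 (standard error 0.18, 95% confidence interval 1.24 to 2.05, adjusted p = 0.00279 from limma), a 3.13-fold increase. The call held whichever array was left out, and was lost by the methods' t-test once adjusted (adjusted p = 0.103). As for Pygm, a single probe set carries the result.

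**Figure D1:**
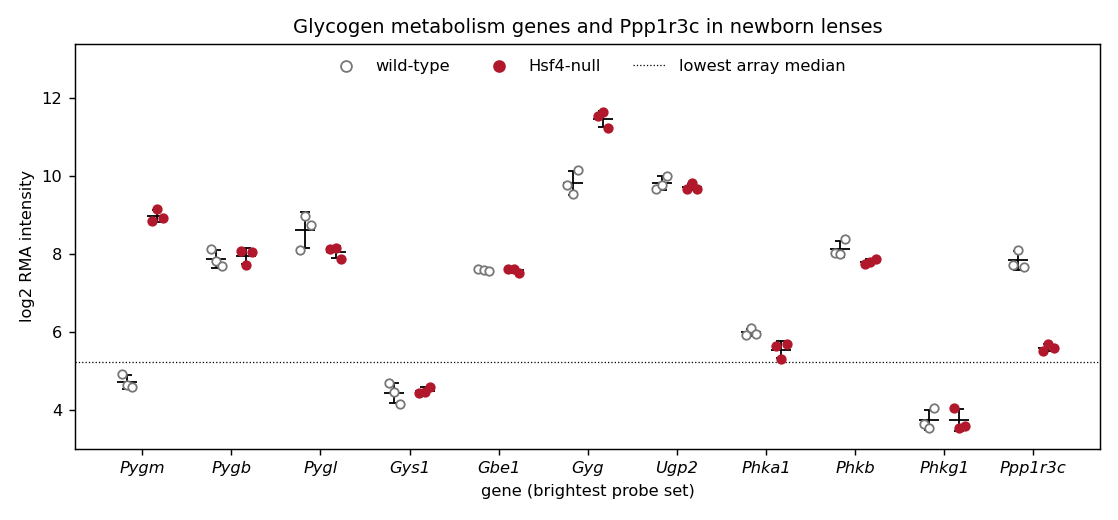
Log2 RMA intensity (vertical axis) of the brightest probe set of each of the 10 glycogen genes and of Ppp1r3c on each array, open for wild-type and filled for Hsf4-null (3 each), with the mean ± SD and the lowest array median as a dotted line. Pygm goes from 4.58 to 4.93 in wild-type to 8.86 to 9.15 in Hsf4-null lenses, Gyg is also higher, and Ppp1r3c is lower without overlap.

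The promoters of the pathway's genes with the largest differences are shown to let them be compared with the binding sequence of heat shock factors. RefSeq's GRCm38.p6 promoter table gives 250 bases before to 50 bases after the start of each gene. Ppp1r3c, described below with the phosphatase subunits, fell in Hsf4-null lenses. Capitals mark CAGCTG, a form of the E-box that muscle transcription factors bind, which was looked for only after the sequences had been seen.
Pygm promoter, chr19:6384158-6384457, plus strand: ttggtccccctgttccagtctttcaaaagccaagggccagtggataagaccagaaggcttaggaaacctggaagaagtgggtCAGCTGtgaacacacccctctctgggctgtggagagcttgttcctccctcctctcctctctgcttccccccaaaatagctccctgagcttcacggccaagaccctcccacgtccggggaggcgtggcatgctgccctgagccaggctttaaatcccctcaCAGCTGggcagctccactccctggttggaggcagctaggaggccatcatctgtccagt
Gyg promoter, chr3:20155067-20155366, minus strand: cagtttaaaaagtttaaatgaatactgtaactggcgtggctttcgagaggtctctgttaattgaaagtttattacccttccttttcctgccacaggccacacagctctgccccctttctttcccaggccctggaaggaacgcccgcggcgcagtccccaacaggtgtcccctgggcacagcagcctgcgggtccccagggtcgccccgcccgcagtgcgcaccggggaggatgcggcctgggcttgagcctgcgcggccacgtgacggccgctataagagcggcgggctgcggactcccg
Ppp1r3c promoter, chr19:36736555-36736854, minus strand: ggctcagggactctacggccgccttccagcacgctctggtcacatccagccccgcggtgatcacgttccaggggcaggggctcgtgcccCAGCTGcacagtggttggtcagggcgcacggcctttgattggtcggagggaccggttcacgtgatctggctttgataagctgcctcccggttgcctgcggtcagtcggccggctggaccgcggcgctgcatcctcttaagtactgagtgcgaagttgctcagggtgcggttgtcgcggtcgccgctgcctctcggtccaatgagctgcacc

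The heat shock element is built of GAA units in alternating orientation. Neither GAANNTTC nor TTCNNGAA, which read the same on both strands and overlap where a longer element holds both, was found in any of the 11 promoters listed for the 10 genes. Among 32851 mouse promoters of this length, 15.1% hold one or the other. Of 27 further glycogen genes with a promoter in the table, 3 (Pgm1, Prkacb and Stbd1) hold one, and Ppp1r3c does not. CAGCTG, also the same on both strands, occurs 2 times in the Pygm promoter, as in that of Gys1, 1 time in that of Ppp1r3c and not in that of Gyg. It was present in promoters of 5 of the 10 genes, the others being Gys1, Phka1, Phkb and Ugp2, which is 5 of their 11 promoters. Among the 27 further genes it was present in 4 (Ppp1r3a, Ppp1r3c, Prkaca and Prkar1a), which is 5 of their 40 promoters, and its share of all promoters was 16.3%. With 2 copies or more, the share of all promoters was 1.9%. These letters describe a short window only, and binding was not measured here.

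The other phosphorylase genes did not pass the test. Pygb, the brain form, read 8.14, 7.82 and 7.69 in wild-type lenses, against 8.09, 7.72 and 8.05 in Hsf4-null lenses. The groups overlapped throughout, with a log2 difference of 0.07 (95% confidence interval -0.29 to 0.43, adjusted p = 0.873 from limma). Pygl, the liver form, read 8.12, 8.99 and 8.76 in wild-type lenses, against 8.14, 8.15 and 7.87 in Hsf4-null lenses. Wild-type replicate 1 lay among the Hsf4-null arrays, and the other 2 wild-type arrays lay above them. The difference for Pygl was -0.57 (95% confidence interval -1.07 to -0.06, adjusted p = 0.267), and without wild-type replicate 1 it was -0.82 and passed (adjusted p = 0.0391).

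Of the other genes of synthesis besides Gyg, none passed. Gbe1, the branching enzyme, differed little from array to array, with the wild-type arrays at 7.62, 7.59 and 7.57 and the Hsf4-null arrays at 7.63, 7.61 and 7.52. Its difference was -0.01, with an interval of -0.22 to 0.20. Ugp2, which makes UDP-glucose, has 5 probe sets with differences from -0.10 to 0.13, and their groups overlapped in each. The brightest of them read 9.67, 9.78 and 10.02 in wild-type lenses, against 9.67, 9.83 and 9.68 in Hsf4-null lenses. Gys1, the synthase of muscle and most other tissues, was dim on both of its probe sets, with wild-type means of 4.43 and 3.70 and Hsf4-null means of 4.49 and 3.54. A change of Gys1 could be hidden at that level.

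No probe set of the phosphorylase kinase subunits passed. Phkb, the beta subunit, read 8.02, 7.99 and 8.38 in wild-type lenses, against 7.74, 7.81 and 7.87 in Hsf4-null lenses. The groups did not overlap, yet the difference of -0.32 (95% confidence interval -0.63 to -0.03) did not pass (adjusted p = 0.28 from limma). The probe sets of Phka1, the alpha subunit of muscle, differed in the sign of their difference. The brightest read 5.92, 6.10 and 5.96 in wild-type lenses, against 5.65, 5.31 and 5.69 in Hsf4-null lenses, without overlap and with a difference of -0.44 (adjusted p = 0.151). The other 2, near the array medians, had differences of 0.28 (adjusted p = 0.366) and 0.02 (adjusted p = 0.96). Phkg1, the catalytic gamma subunit of muscle, was dim on both probe sets, at 3.74 and 3.79 in wild-type lenses. Their differences were -0.01 (adjusted p = 0.987 from limma) and -0.13 (adjusted p = 0.548), and the groups of the latter did not overlap.

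Over the 9 genes besides Pygm, 1 rose, 0 fell and 8 did not pass. That is 11.1% of these genes, beside 3.69% of all genes with a call on any probe set. By probe set, 1 of 17 was called (5.88%), beside 2.66% of all probe sets, made up of 0.72% that were higher and 1.94% that were lower in Hsf4-null lenses. At an unadjusted p under 0.05 from limma, 1 of the 17 was higher and 3 were lower, beside 6.83% and 8.55% of all probe sets (15.4% in all). Groups that did not overlap were found for 4 of the 17 (23.5%), 1 higher and 3 lower, beside 21.1% of all probe sets, 9.37% higher and 11.7% lower. The median difference over the 9 brightest probe sets was -0.01, and over all genes 0.01. The 16 probe sets that did not pass had differences from -0.57 to 0.28, with interval bounds no farther out than -1.07 and 0.58.

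**Figure D2:**
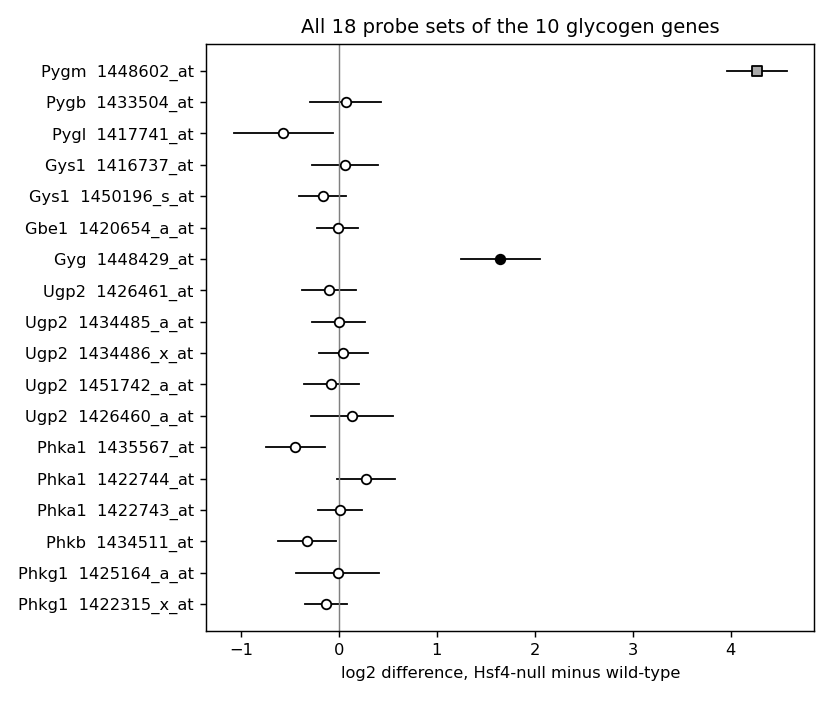
Log2 difference, Hsf4-null minus wild-type, of the 18 probe sets of the 10 glycogen genes on the horizontal axis, with 95% confidence intervals from limma over 3 arrays per group. The filled circle is the call for Gyg at 1.65, open circles did not pass, and the grey square is Pygm at 4.26, which was not tested.

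A wider list covers other enzymes of the pathway, subunits that target phosphatase 1 to glycogen, and the kinases and phosphatases that act on its enzymes. Of 44 listed genes, 29 were measured. Among them 1 fell, 0 rose and 28 did not pass, which is 3.45% called beside 2.88% of all genes by their brightest probe set, 0.775% higher and 2.11% lower. Before adjustment, at p under 0.05 from limma, 1 was higher and 3 were lower, beside 7.34% and 8.38% of all genes (15.7% in all). The methods' t-test gave 1 of each, beside 5.79% and 7.6% of all genes. The median difference was -0.02.

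The gene that fell was Ppp1r3c, also known as PTG, a targeting subunit that brings phosphatase 1 to glycogen and to its enzymes. It read 7.73, 8.11 and 7.68 in wild-type lenses, against 5.52, 5.69 and 5.58 in Hsf4-null lenses. Every Hsf4-null array lay far below every wild-type array, and close to the array medians. The log2 difference was -2.24 (standard error 0.14, 95% confidence interval -2.56 to -1.93, adjusted p = 0.000152 from limma), a 4.74-fold decrease. The call held in each of the alternatives, the methods' t-test after adjustment included. A second, dim probe set of Ppp1r3c had means of 3.80 with and 3.70 without Hsf4, with a difference of -0.10 (adjusted p = 0.749).

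The other targeting and quality control genes did not pass. Ppp1r3a, the targeting subunit of muscle, was dim, with a difference of 0.23. Ppp1r3f had a difference of -0.20. Stbd1, which tethers glycogen to membranes, and Epm2a, the glycogen phosphatase laforin, were dim, with differences of 0.12 and 0.11. Of the 6 measured genes in this group, 4 were dim in both genotypes.

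The genes that feed or degrade glycogen by other routes did not pass either. Hk2, a hexokinase, read 9.79, 9.99 and 10.19 in wild-type lenses, against 9.47, 9.77 and 9.59 in Hsf4-null lenses. The difference was -0.38 (adjusted p = 0.233 from limma), and the groups did not overlap. Pgm1, a phosphoglucomutase that links glucose phosphates with glycogen, had a difference of 0.10, Pgm2 one of -0.18, and the dim liver synthase Gys2 one of -0.22. Gaa, the lysosomal glucosidase that degrades glycogen, had 0.18. Phkg2 and Phka2, phosphorylase kinase subunits of liver, had 0.17 and -0.36.

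Of 15 measured kinases and phosphatases, 0 rose and 0 fell by the brightest probe set in limma, beside 2.88% of all genes called. Before adjustment, at p under 0.05 from limma, 1 was higher and 1 was lower, which is 13.3% beside 15.7% of all genes. The methods' t-test gave 1 higher and 0 lower, beside 5.79% and 7.6% of all genes. The largest differences were those of Prkab1, a subunit of AMP-activated kinase, at 0.41 (adjusted p = 0.199 from limma), and of Prkacb, a catalytic subunit of protein kinase A, at -0.28 (adjusted p = 0.289). Prkag2 had -0.22 and Prkar2a 0.20. For Prkar1a, a regulatory subunit of protein kinase A, the dimmer of 2 probe sets fell by 0.63 on the log2 scale (adjusted p = 0.0431 from limma), whereas the brighter had -0.19 and did not pass. Prkar1a is named because it is the other gene of the list with a call on any probe set.

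**Figure D3:**
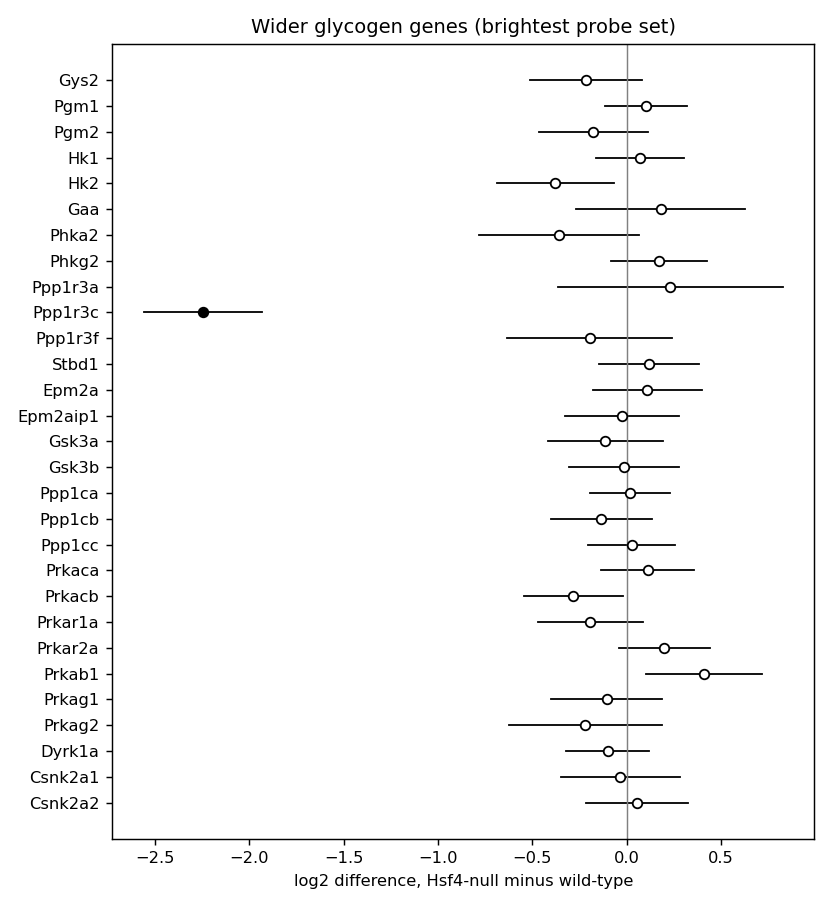
Log2 difference, Hsf4-null minus wild-type, of the 29 measured genes of the wider glycogen list by their brightest probe set, on the horizontal axis, with 95% confidence intervals from limma over 3 arrays per group. Ppp1r3c at -2.24 is the filled circle, and the open circles lie between -0.38 and 0.41.

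Since Pygm is the muscle form and muscle lies beside the eye, genes of skeletal muscle were read in the same lenses. Of 29 measured muscle genes, 0 passed limma, beside 2.88% of all genes. Before adjustment, at p under 0.05 from limma, 2 were higher and 1 was lower, which is 10.3% beside 15.7% of all genes. These were muscle energy genes, 30% of the 10 measured, with 0 among the 19 skeletal muscle markers. The methods' t-test gave 1 and 1, beside 5.79% and 7.6% of all genes. The 19 measured skeletal muscle markers were dim in both genotypes in 17 cases. Acta1 and Ckm, skeletal actin and muscle creatine kinase, had wild-type means of 3.77 and 3.84 and Hsf4-null means of 3.67 and 3.76. Differences over the 19 markers ran from -0.25 for Actn3 to 0.25 for Myog, with Tnnt1 at -0.24 and Tnnc2 at 0.21. Their summed intensity on the linear scale was 399 to 447 in wild-type lenses against 396 to 492 in Hsf4-null ones, so that the groups overlapped. Casq1 and Tnni1 made up 29.2% to 38% and 10.7% to 13.8% of this sum, and the rest came from dim markers. Those 2 are named because their group means were not dim. Acta1 and Ckm were named as defining markers.

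Of 10 measured muscle energy genes, 5 were dim in both genotypes, and the median difference was 0.05. Their summed intensity was 6283 to 7025 in wild-type lenses against 7647 to 8161 in Hsf4-null ones, without overlap. Cox6a2, the heart and muscle form of a cytochrome oxidase subunit, had the largest difference of them. It read 5.70, 6.34 and 6.56 in wild-type lenses, against 7.38, 8.56 and 7.20 in Hsf4-null lenses. The groups did not overlap, and the difference of 1.52 (standard error 0.37, adjusted p = 0.0891 from limma) passed only with an intensity trend in the variance (adjusted p = 0.045) and by the methods' t-test unadjusted. Cox8b, another muscle form of a cytochrome oxidase subunit, was dim, with a difference of -0.48 (adjusted p = 0.087). Ldb3 had 0.32. Pgam2, the muscle phosphoglycerate mutase, was bright in both genotypes with a difference of 0.25 (adjusted p = 0.352), and its groups did not overlap. It made up 67.6% to 77% of the summed intensity of the muscle energy genes.

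**Figure D4:**
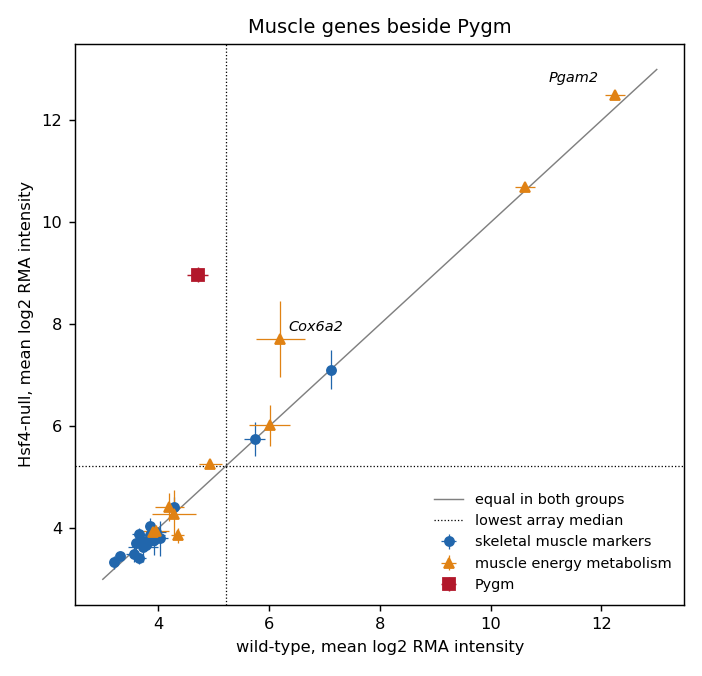
Mean log2 RMA intensity in wild-type (horizontal axis) and Hsf4-null lenses (vertical axis) of 19 skeletal muscle markers, 10 muscle energy genes and Pygm, with SD over 3 arrays per group as bars, the line of equal levels, and the lowest array median dotted. Most muscle genes lie on the line in the dim corner, Cox6a2 lies above it, and Pygm, at 4.71 and 8.98, stands away from it.

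Markers of other tissues around the lens were read for the same reason. None of 7 smooth muscle and iris markers passed limma, beside 2.88% of all genes. Unadjusted, at p under 0.05 from limma, 2 were higher and 1 was lower, which is 42.9% beside 15.7% of all genes. The methods' t-test gave 2 and 2, beside 5.79% and 7.6% of all genes. The summed intensity of the 7 markers was 181 to 267 in wild-type lenses against 281 to 436 in Hsf4-null ones, without overlap. The largest differences among them were those of Acta2 (1.05, adjusted p = 0.121) and Tagln (1.03, adjusted p = 0.11). The smooth muscle markers Myh11, Cnn1, Des, Smtn and Actg2 were dim in both, with differences of 0.20, -0.13, -0.14, -0.26 and -0.05. The groups of Des and Smtn did not overlap, and Smtn was the marker that was lower in limma before adjustment. For 7 blood and macrophage markers, of which 0 passed limma, 4 were higher at an unadjusted p under 0.05, beside 7.34% of all genes, and 2 by the methods' t-test, beside 5.79%. Their summed intensity was 222 to 432 in wild-type lenses against 410 to 652 in Hsf4-null ones. Lyz2, a lysozyme of macrophages, had the largest difference, 1.68 (adjusted p = 0.103). For 13 retina and glia markers, 0 passed limma, beside 2.88% of all genes. At an unadjusted p under 0.05 from limma 1 was higher, which is 7.69% beside 15.7% of all genes. By the methods' t-test 1 was higher, beside 5.79%. The summed intensity of these markers was 4289 to 8515 in wild-type lenses against 7086 to 8191 in Hsf4-null ones. A sum weighs each probe set by its brightness, and in this last one Glul, glutamine synthetase, made up 88.9% to 93.4% on each array. Acta2 made up 47.3% to 68.2% of the smooth muscle sum, and the macrophage receptor Csf1r 37.4% to 66% of the blood and macrophage one. By their group means, 9 of the retina and glia markers were dim in both genotypes, as were 4 of the blood and macrophage markers. Among the 9 were the photoreceptor factors Crx and Nrl. On wild-type replicate 2 both were above the dim range (5.26 and 5.61). So they were on Hsf4-null replicates 1 (5.43 and 5.73) and 3 (5.26 and 5.39). The group means of Glul, Slc1a3, Aqp4 and Rlbp1 were not dim in either genotype. Slc1a3 read 8.57, 8.27 and 7.17 in wild-type lenses, against 8.78, 7.50 and 8.52 in Hsf4-null lenses. Acta2, Tagln, Lyz2, Csf1r, Glul, Crx, Nrl, Slc1a3, Aqp4 and Rlbp1 are named here after their values were seen. Their part in the values of Pygm, Gyg and Ppp1r3c was not tested.

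The genes beside Pygm on its chromosome were read next, since position was not used in choosing it. Of the 10 nearest measured genes to either side along the GRCm38.p6 gene order, 0 rose, 1 fell and 19 did not pass by limma. Calls made up 5%, beside 2.88% of all genes. Before adjustment, at p under 0.05 from limma, 2 were higher and 2 were lower, which is 20% beside 15.7% of all genes, and the methods' t-test also gave 2 and 2. The nearest on either side were Sf1, a splicing factor, with a difference of -0.10, and Rasgrp2, an activator of Rap GTPases. Rasgrp2 was dim, at 4.02, 3.75 and 3.81 in wild-type lenses, against 4.12, 4.68 and 4.30 in Hsf4-null lenses. Its groups did not overlap, and the difference of 0.51 did not pass (adjusted p = 0.178). Ppp1r14b, an inhibitor of phosphatase 1, was the gene that fell, by 0.80 on the log2 scale (adjusted p = 0.0375 from limma). That call was lost without any one array other than wild-type replicate 1, with adjusted p from 0.108 to 0.123, and with the replicate number as a block (adjusted p = 0.0591).

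The same was read beside Gyg after its rise had been seen. Its 20 measured neighbours reached farther, up to 3905045 bases away towards lower coordinates and 9796178 towards higher ones. For Pygm these distances were 265821 and 579272 bases. Of the 20 neighbours of Gyg, 0 rose and 0 fell by limma, beside 2.88% of all genes called. Before adjustment, at p under 0.05 from limma, 4 were higher and 2 were lower, which is 30% beside 15.7% of all genes, and the methods' t-test gave 2 and 2. Hltf and Cpa3, the nearest on either side, had differences of 0.21 and 0.34. The highest, Hps3, had 0.57 (adjusted p = 0.0678).

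**Figure D5:**
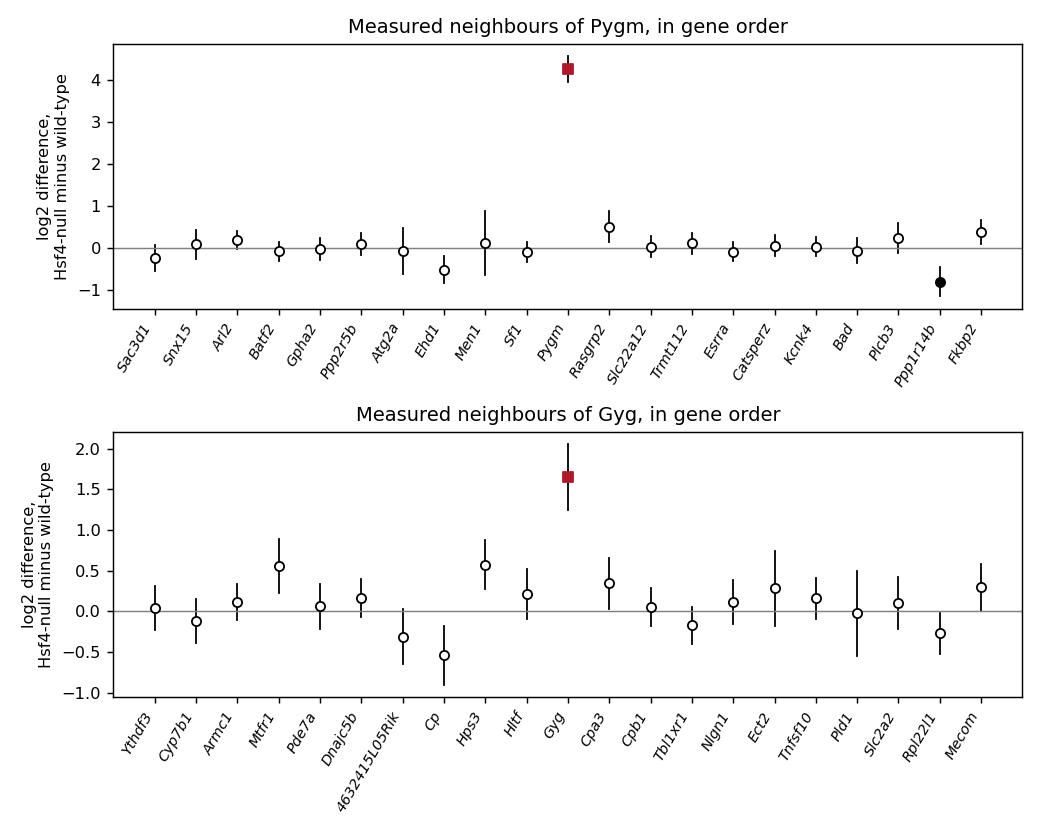
Log2 difference, Hsf4-null minus wild-type (vertical axes), of the 10 measured genes on each side of Pygm (top) and of Gyg (bottom) in gene order, with 95% confidence intervals from limma over 3 arrays per group. Squares are Pygm at 4.26 and Gyg at 1.65, the filled circle is Ppp1r14b at -0.80, and the open circles did not pass.

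Over the 6 arrays, the genes whose log2 values ran most like those of Pygm were Rian and Meg3, neighbouring imprinted noncoding RNAs, with Pearson correlations of 0.998 and 0.997. Gadd45a, a growth arrest and DNA damage gene, followed at 0.997, and Chac1, which degrades glutathione, at 0.995. Naxd, an enzyme that repairs damaged NADH, was at 0.994. The log2 differences of these last 3 genes were 0.93, 1.22 and 0.30, and that of Naxd did not pass (adjusted p = 0.151 from limma). Gyg came at place 63 with 0.967. The arrays form 2 groups, so a gene that differs clearly between them has a high correlation whatever its order within a group. Within the groups the orders of Pygm and Gyg differed in wild-type lenses, where Gyg was highest in replicate 3 and Pygm lowest there, and both were highest in replicate 2 among the Hsf4-null lenses.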

How the data were processed

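Transcripts were measured on 6 Affymetrix arrays of newborn lens, 3 wild-type and 3 Hsf4-null, grouped by their labels. The authors normalized the arrays by RMA, as their processing notes also state, so that the deposited file holds a linear intensity for every probe set on each array. For the RMA version, nothing is given in the sources used here. RMA compresses changes of dim probe sets.

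From these, log2 was taken. The file holds 22690 probe sets, and without its 64 array controls 22626 entered a 2-group limma model (version 3.58.1 under R 4.3.3, moderated by eBayes), at a Benjamini-Hochberg adjusted p under 0.05 over all of them. Intervals are at 95%. Of the tested probe sets, 20380 carry 1 symbol, 691 several and 1555 are unnamed here. Of the 20380, 20351 were matched through gene identifiers to GRCm38.p6 symbols. Members were read on every probe set with their symbol alone, and other genes on the brightest. The procedure was tested on simulated data. With 3 arrays against 3, an exact permutation test cannot go below 0.1, and the number of arrays limits the precision.

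Named are all members, Hsf4, genes of the wider glycogen and muscle lists that passed with up to 4 others per list of the largest differences, the 5 genes most like Pygm, and called or nearest neighbours. Exceptions are marked in the text. The members and lists were chosen with earlier results of these data known. Alternatives were trended or robust variance, array weights, quantile normalization, median centring, removal of dim probe sets, the methods' t-test, a replicate block, log2 of the value plus 16, and leaving out each array. SAM, also named in the methods, was not run.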

Additional observations from a re-analysis of the deposited data

How the results depend on the processing

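Pygm differed by 4.18 to 4.37 on the log2 scale whichever array was left out. With 16 added to each value, which shrinks differences from a dim level, it differed by 3.62. As Pygm was selected on this difference, these values are a description only. Gyg and Ppp1r3c kept their direction in all alternatives. Gyg lost its call in 1 of 16, the methods' t-test after adjustment. Of the 9 genes besides Pygm, 1 to 2 passed when an array was left out, the second being Pygl without wild-type replicate 1. By the methods' t-test unadjusted 3 passed, namely Gyg, Phka1 and Phkg1, and 0 after adjustment. For the wider glycogen list 2 passed by the unadjusted t-test and 2 on any probe set. For the muscle genes 1 passed with an intensity trend and 2 by the unadjusted t-test. Neighbours of Pygm that passed numbered 4 by the unadjusted t-test, 0 after adjustment, 0 with the replicate block and 0 to 1 when an array was left out. Of all probe sets, 602 passed, 2912 by the unadjusted t-test, 85 after adjustment and 321 to 562 when an array was left out.

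The replicate numbers are shared between the genotypes. Deviations from the group means of same-numbered arrays correlated at 0.25, -0.21 and -0.08. Those of differently numbered arrays ran from -0.38 (wild-type 3 with Hsf4-null 1) to 0.41 (wild-type 3 with Hsf4-null 2). The numbers were therefore not taken to pair the arrays. With the replicate block, 382 probe sets passed, and Gyg and Ppp1r3c were still called.

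Pygm in wild-type lenses, Gys1, Phkg1 and most muscle markers lay below the lowest array median, where small changes cannot be resolved. Pygm and Gyg rest on 1 probe set each.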

Other observations

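Genes whose values ran most like those of Gyg over the 6 arrays, looked for after its rise had been seen, were Bnip3, a mitophagy receptor (Pearson correlation 0.997), Epb41l1, a membrane skeleton protein (0.994), Ankib1 (0.993), Capn5, a calpain (0.992), and Fos, an immediate early factor (0.992). Bnip3 rose by 1.05 on the log2 scale, and Capn5 by 1.29. Bnip3 read 9.79, 9.78 and 10.13 in wild-type and 10.98, 11.06 and 10.83 in Hsf4-null lenses, with wild-type replicate 3 highest and Hsf4-null replicate 3 lowest, as for Gyg. These correlations describe 6 arrays in 2 groups and carry no test.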
